A study of Mus musculus with 9 samples.

Results

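The genes described here are 9 enzymes that make NADPH or belong to the pentose phosphate pathway: G6pdx, Pgls, Pgd, Rpia, Rpe, Tkt, Taldo1, Me1 and Idh1. They were chosen by name, and all 9 were found among the 54532 genes of the deposited expression table. RNA was sequenced from RAW 264.7, an established line of mouse macrophages labelled WT with ascites as its source, in 3 groups of 3 libraries. LPS + H-CDs cells received H-CDs at 400 µg/ml together with 1 µg/ml of lipopolysaccharide (LPS), a molecule of the bacterial outer membrane that macrophages sense. LPS cells were given the same LPS alone, and control cells were left untreated. The design text gives 6 h of exposure; the labels do not spell out H-CDs, and the title of the series speaks of a nanozyme from fruit with superoxide dismutase activity. None of the 3 groups received H-CDs without LPS, so the effect of H-CDs alone was not measured. All cells are of 1 line, and the labels do not tell whether replicates were separate cultures, so each p-value measures the spread between these libraries, which may be technical. In such bulk RNA, fewer cells of a type and less RNA per cell cannot be told apart.

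NADPH is the reduced cofactor that cells spend on renewing glutathione and thioredoxin, on building fatty acids and sterols, and, in macrophages, on the oxidative burst and on making nitric oxide. The oxidative branch of the pentose phosphate pathway makes it in the cytosol in a pair of oxidation steps, run by glucose-6-phosphate dehydrogenase (G6pdx), the entry enzyme, and 6-phosphogluconate dehydrogenase (Pgd), with 6-phosphogluconolactonase (Pgls) between them. The non-oxidative branch rearranges the pentose phosphates: Rpia and Rpe interconvert them, and transketolase (Tkt) and transaldolase (Taldo1) return the carbon to glycolysis. Cytosolic malic enzyme (Me1) and cytosolic isocitrate dehydrogenase (Idh1) make NADPH from malate and isocitrate. Several of these genes are known from other work as targets of NRF2, which switches on genes against oxidative stress.

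Between 14377161 and 16069968 reads lay behind each library, and each of the 9 genes had 402 to 13227 reads in every library, so that all passed the filter on low values in every group. All 9 macrophage markers, such as Adgre1 and Csf1r, were at 1 FPKM or more in every library, whereas no marker of T, B, epithelial or fibroblast cells exceeded 0.370 FPKM and no endothelial marker 1.03 FPKM. Replicate 1 of LPS + H-CDs stood apart: mitochondrially encoded messenger RNAs took 0.490% of its reads, against 1.62% and 1.64% in the other two libraries of that group. Results on the 9 genes are given without it below where it changed a call or a direction, and counts of the other lists in LPS + H-CDs against LPS where it changed them.

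Promoter sequences are shown for the genes that rose in LPS + H-CDs against LPS. They were picked by that rise, and their changes against control differed, as given below. NRF2 is known to bind antioxidant response elements, whose core was searched as TGACNNNGC on both strands. RefSeq start sites on GRCm38.p6 gave 12 windows of 250 bases before to 50 bases after a start for the 9 genes. Of these, 3 windows held a match, in G6pdx, Me1 and Pgd; of all 32851 windows 12.4% did, and 14% of genes had a match in at least 1 window. Bases -150 to 12 are printed, where 1 is the start site, with the match in capitals.
G6pdx, chrX:74428869-74429030, - strand: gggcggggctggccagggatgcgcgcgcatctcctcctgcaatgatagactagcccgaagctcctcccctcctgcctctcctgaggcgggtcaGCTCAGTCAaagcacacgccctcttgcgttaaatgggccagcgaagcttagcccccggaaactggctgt
Me1, outer start, chr9:86695903-86696064, - strand: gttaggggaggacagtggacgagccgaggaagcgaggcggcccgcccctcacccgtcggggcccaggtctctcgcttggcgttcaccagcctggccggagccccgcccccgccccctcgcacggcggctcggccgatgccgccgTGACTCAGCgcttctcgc
Pgd, inner start, chr4:149166071-149166232, - strand: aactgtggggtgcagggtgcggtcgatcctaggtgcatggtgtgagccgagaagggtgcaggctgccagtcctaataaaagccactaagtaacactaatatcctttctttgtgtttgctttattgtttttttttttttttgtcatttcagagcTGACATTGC
Pgd, outer start, chr4:149166694-149166855, - strand: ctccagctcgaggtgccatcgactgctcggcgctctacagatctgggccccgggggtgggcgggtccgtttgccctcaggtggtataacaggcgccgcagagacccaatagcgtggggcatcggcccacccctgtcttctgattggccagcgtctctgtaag
Taldo1, chr7:141392010-141392171, + strand: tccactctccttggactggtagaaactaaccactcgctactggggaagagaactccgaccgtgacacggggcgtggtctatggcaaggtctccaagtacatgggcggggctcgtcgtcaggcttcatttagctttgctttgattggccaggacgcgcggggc
Idh1, outer start, chr1:65186468-65186629, - strand: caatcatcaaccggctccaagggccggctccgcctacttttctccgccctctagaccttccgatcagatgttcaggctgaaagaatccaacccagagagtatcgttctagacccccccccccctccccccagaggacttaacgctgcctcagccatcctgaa
In G6pdx the match lay at bases -57 to -49 on the strand opposite to the gene. In Me1 it lay on the gene's own strand at bases -6 to 3, across the start, and also holds TGANTCA, the core of AP-1 sites. In Pgd it lay at bases 4 to 12 of the inner start, on the gene's own strand and after the start site. Whether the cells used this inner start was not tested. The outer Pgd start, the inner Me1 start, Taldo1, both Idh1 starts and the windows of Pgls, Rpia, Rpe and Tkt held no such letters. A match is a run of letters and not a measured binding site.

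The effect of adding H-CDs to LPS was read from LPS + H-CDs against LPS. Of the 9 genes, 5 rose, none fell and 4 did not pass the test. The 5 were Pgd, G6pdx, Taldo1, Me1 and Idh1, with ratios of mean FPKM of 2.31 to 1.39. Over all 11707 tested genes 15.6% were called in this comparison, 6.54% as higher and 9.05% as lower (limma on log2(FPKM + 1) with Benjamini-Hochberg adjustment, adjusted p under 0.05). The median log2 fold change of the 9 was 0.44, beside -0.01 over all tested genes. For 6 of the 9 genes no library of one group lay within the range of the other, 5 higher and 1 lower with H-CDs, beside 36.8% of all tested genes, 16.4% higher and 20.4% lower. FPKM are fragments per kilobase of gene and per unit of library size, as scaled by the authors, and SDs below are over n = 3 libraries per group.

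In the oxidative branch both dehydrogenases rose and the lactonase between them was not called. Pgd (ENSMUSG00000028961, chromosome 4, 149149991 to 149166771, minus strand, GRCm38) was at 137, 130.1 and 126 FPKM in LPS + H-CDs libraries, 55.1, 56.95 and 58.3 FPKM in LPS libraries and 82.7, 99.4 and 89.4 FPKM in control libraries. Every LPS + H-CDs library lay above every LPS and control library. Its mean of 131 ± 5.96 FPKM with H-CDs, against 56.8 ± 1.60 FPKM with LPS alone, gave a log2 fold change of 1.19 ± 0.08 (SE; limma adjusted p = 1.83e-05), rank 42 from the top of the 11707 tested genes. G6pdx (ENSMUSG00000031400, chromosome X, 74409483 to 74429194, minus strand) was at 129.6, 156 and 157 FPKM in LPS + H-CDs libraries, 78.5, 81.05 and 77.1 FPKM in LPS libraries and 95.5, 100.5 and 103.5 FPKM in control libraries. Replicate 1 was the lowest of the H-CDs libraries and still above all others. With H-CDs G6pdx averaged 148 ± 15.6 FPKM, against 78.9 ± 1.999 FPKM with LPS alone (log2 fold change 0.89 ± 0.08, limma adjusted p = 1.56e-04, rank 101).

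Pgls (ENSMUSG00000031807, chromosome 8, 71592176 to 71601092, plus strand) was at 20.7, 16.9 and 15.6 FPKM in LPS + H-CDs libraries, 15.6, 15.9 and 18.2 FPKM in LPS libraries and 21.96, 24.1 and 24.7 FPKM in control libraries. The libraries with and without H-CDs overlapped, and the log2 fold change was 0.09 (95% confidence interval -0.15 to 0.32, limma adjusted p = 0.631). Its sign turned to -0.023 without LPS + H-CDs replicate 1, the highest of its group. Summed over the 3 genes, the oxidative branch stood at 296 ± 8.01 FPKM with LPS + H-CDs, 152 ± 2.64 FPKM with LPS and 214 ± 12.3 FPKM in control.

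In the non-oxidative branch Taldo1 rose, and Tkt, Rpia and Rpe were not called. Taldo1 (ENSMUSG00000025503, chromosome 7, 141392199 to 141402968, plus strand) was at 110.4, 119.5 and 123 FPKM in LPS + H-CDs libraries, 67.5, 69.6 and 77.7 FPKM in LPS libraries and 94.5, 98.4 and 110.6 FPKM in control libraries. All LPS + H-CDs libraries exceeded all LPS libraries, and 1 control library reached into the H-CDs range. The log2 fold change over LPS was 0.71 ± 0.08 (limma adjusted p = 6.11e-04, rank 180). Tkt (ENSMUSG00000021957, chromosome 14, 30548359 to 30574720, plus strand) was at 61.3, 66.3 and 66.2 FPKM in LPS + H-CDs libraries, 58.1, 61.1 and 61.8 FPKM in LPS libraries and 74.8, 84.2 and 83.05 FPKM in control libraries. The LPS + H-CDs and LPS libraries overlapped, and both lay below all control libraries. Its log2 fold change over LPS was 0.10 (interval -0.05 to 0.25, limma adjusted p = 0.365).

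Rpia (ENSMUSG00000053604, chromosome 6, 70765720 to 70792232, minus strand) had the lowest level of the 9, at 7.88, 5.80 and 5.78 FPKM in LPS + H-CDs libraries, 5.62, 5.98 and 6.64 FPKM in LPS libraries and 7.38, 9.502 and 7.51 FPKM in control libraries. Its log2 fold change over LPS was 0.07 (interval -0.22 to 0.36, limma adjusted p = 0.762), and -0.058 without LPS + H-CDs replicate 1, whose value stood above the other two. Rpe (ENSMUSG00000026005, chromosome 1, 66700831 to 66719805, plus strand) was at 16.7, 16.7 and 15.01 FPKM in LPS + H-CDs libraries, 17.6, 17.03 and 17.7 FPKM in LPS libraries and 11.5, 9.07 and 13.1 FPKM in control libraries. The H-CDs libraries all lay just below the LPS libraries, but the difference did not pass (log2 fold change -0.11, interval -0.36 to 0.14, limma adjusted p = 0.565). The summed level of the branch was 205 ± 7.45 FPKM with LPS + H-CDs, 155 ± 7.68 FPKM with LPS and 201 ± 13.1 FPKM in control.

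Both enzymes outside the pentose phosphate pathway rose. Me1 (ENSMUSG00000032418, chromosome 9, 86581371 to 86695953, minus strand) was at 71.3, 65.6 and 60.7 FPKM in LPS + H-CDs libraries, 47.95, 48.6 and 42.3 FPKM in LPS libraries and 41.2, 35.9 and 40.7 FPKM in control libraries. The 3 groups did not overlap, with LPS + H-CDs highest and control lowest. The log2 fold change over LPS was 0.50 ± 0.09 (limma adjusted p = 0.00491, rank 402). Idh1 (ENSMUSG00000025950, chromosome 1, 65158616 to 65186500, minus strand) was at 16.8, 17.8 and 18.4 FPKM in LPS + H-CDs libraries, 13.3, 12.3 and 12.5 FPKM in LPS libraries and 29.6, 30.5 and 30.4 FPKM in control libraries. H-CDs libraries stood above LPS libraries and far below control libraries, and the log2 fold change over LPS was 0.44 ± 0.06 (rank 525, limma adjusted p = 0.00103).

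**Figure D1:**
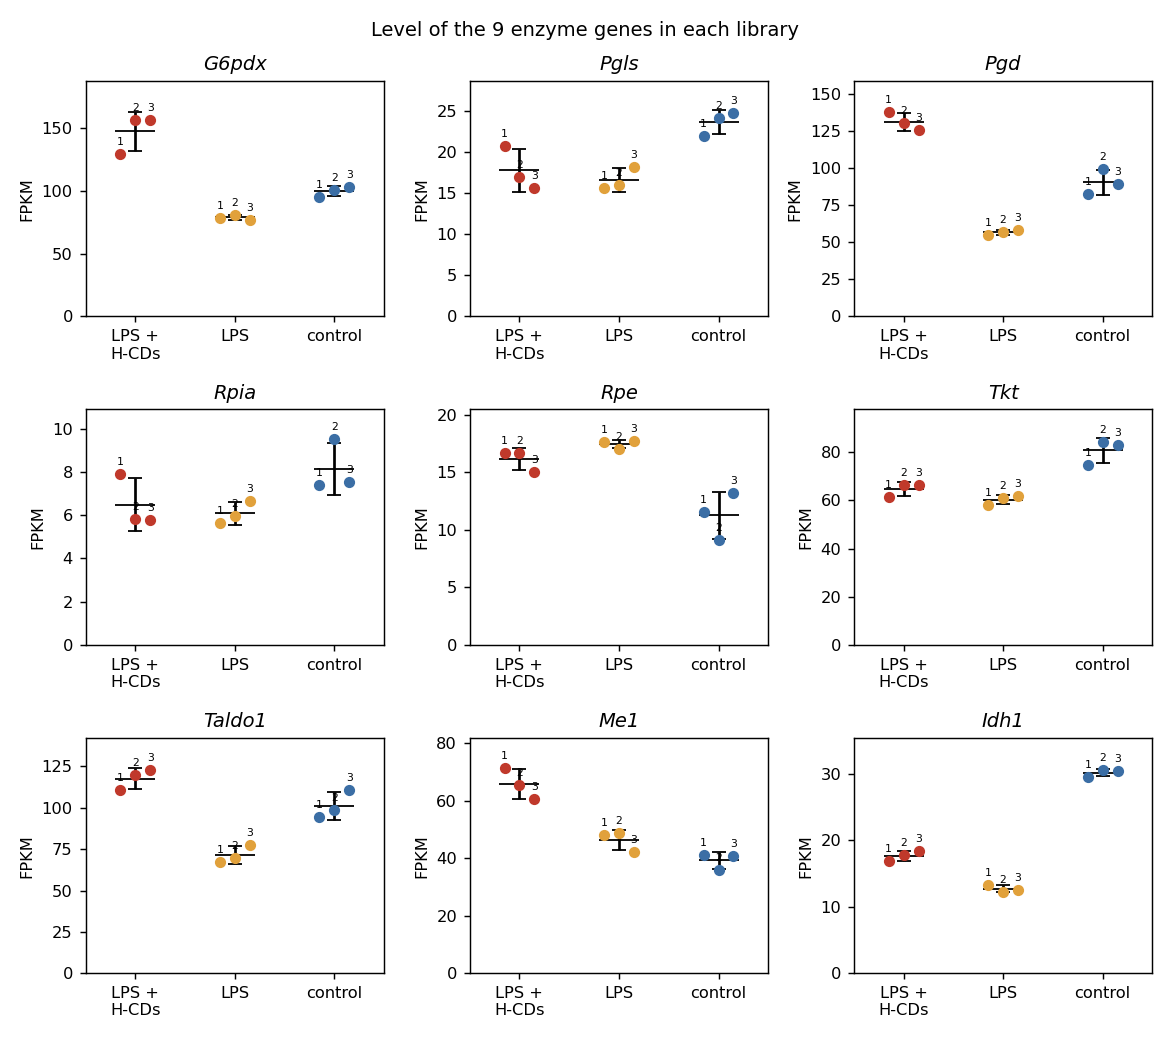
FPKM of the 9 genes (y axis, from 0) in each library, with replicate numbers beside the points and the mean and SD (n = 3) as black bars. Pgd, G6pdx, Taldo1, Me1 and Idh1 were higher in every LPS + H-CDs library than in any LPS library, and Idh1 in control, at 30.2 ± 0.507 FPKM, stood above both LPS groups.

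The authors' deposited table of LPS + H-CDs over LPS, which rests on the same reads, gave log2 fold changes of 1.22 for Pgd, 0.92 for G6pdx, 0.73 for Taldo1, 0.52 for Me1 and 0.49 for Idh1. The adjusted p of these 5 in the authors' deposited table was at most 8.00e-05, and 10.1% of its 21576 genes were under 0.05. For Tkt, Rpe, Pgls and Rpia the authors' deposited table gave 0.322, 0.605, 0.616 and 0.706. The count of 5 higher and 0 lower was the same with edgeR's quasi-likelihood test and with DESeq2 on the reads, under TPM scaling, and when any 1 of the 9 libraries was left out. Under TPM 7.47% of all tested genes were called higher and 5.89% lower.

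LPS alone was compared with untreated cells. With LPS 7 of the 9 fell and 2 rose, where 26.8% of all tested genes were called lower and 28.8% higher, 55.6% in all. Libraries of the groups did not overlap in any of the 9 genes, 2 higher and 7 lower, beside 63.9% of all tested genes, 33.2% higher and 30.7% lower. The median log2 fold change of the 9 was -0.41, beside 0.03 over all tested genes. Idh1 fell most, to 12.7 ± 0.538 FPKM with LPS, against 30.2 ± 0.507 FPKM in control (ratio 0.422, log2 fold change -1.18 ± 0.06, limma adjusted p = 1.59e-07). Pgd followed with -0.66 ± 0.08 (adjusted p = 6.06e-05 in limma).

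Taldo1, Pgls, Tkt, Rpia and G6pdx fell by smaller amounts, with log2 fold changes of -0.49, -0.49, -0.41, -0.36 and -0.34 and limma adjusted p between 5.73e-04 and 0.0362. The Rpia call was the least firm of these: it ended with no filter on low values (adjusted p = 0.0860), and without LPS replicate 1, LPS replicate 2 or control replicate 2, within an adjusted p of 0.00112 to 0.127 over all alternatives. Rpe rose to 17.4 ± 0.366 FPKM with LPS, against 11.3 ± 2.06 FPKM in control (log2 fold change 0.60 ± 0.11, limma adjusted p = 0.00130). Kansl1l, a gene on the opposite strand that overlaps Rpe, averaged 5.05 FPKM with LPS + H-CDs, 5.75 FPKM with LPS and 1.99 FPKM in control; the labels do not say that strands were kept apart, and its part in the Rpe result was not tested.

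Me1 rose by 0.23 ± 0.09 on the log2 scale, just past the threshold (limma adjusted p = 0.0458). That call ended with edgeR's quasi-likelihood test, with no filter on low values, and without LPS replicate 1 or 2, control replicate 2 or 3, or LPS + H-CDs replicate 2, and over all alternatives its adjusted p lay between 0.0264 and 0.321. Rescaled to TPM, the sign of Me1 turned to -0.11.

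**Figure D2:**
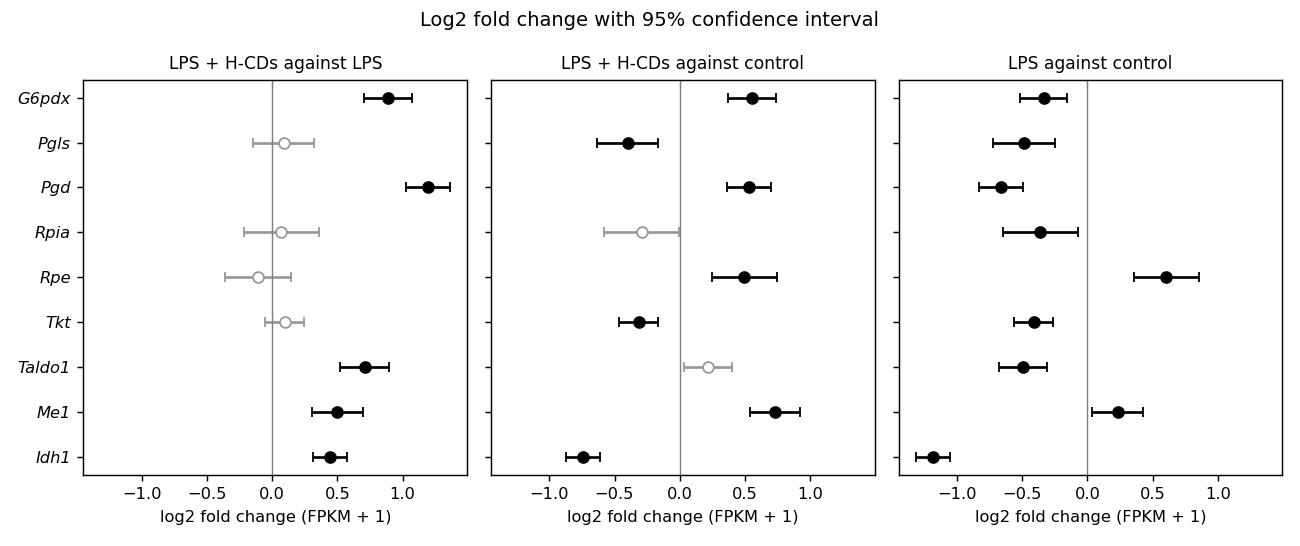
Log2 fold change of each gene on the log2(FPKM + 1) scale (x axis) with its 95% confidence interval, in 3 comparisons; filled points passed an adjusted p of 0.05 in limma. The intervals of Pgd, G6pdx, Taldo1, Me1 and Idh1 lie above 0 for LPS + H-CDs against LPS, and the 7 genes that fell with LPS lie below 0 in the right panel.

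LPS + H-CDs was then set against control. This comparison shares libraries with both comparisons above. Of the 9 genes, 4 were higher than in control, 3 were lower and 2 did not pass, where 26.7% of all tested genes were called higher and 25.4% lower, 52.0% in all. Libraries did not overlap in 7 of the 9, 4 higher and 3 lower, beside 57.7% of all tested genes, 29.7% higher and 28.0% lower. G6pdx was at 148 ± 15.6 FPKM with LPS + H-CDs, against 99.8 ± 4.02 FPKM in control (log2 fold change 0.55 ± 0.08, limma adjusted p = 3.46e-04). Pgd was at 131 ± 5.96 FPKM, against 90.5 ± 8.41 FPKM in control (0.53 ± 0.08, limma adjusted p = 2.78e-04). Me1 was at 65.8 ± 5.28 FPKM, against 39.3 ± 2.94 FPKM in control (0.73 ± 0.09, limma adjusted p = 8.82e-05). Rpe was also higher than in control (0.50 ± 0.11, limma adjusted p = 0.00458), a call that ended when libraries were rescaled to TPM (0.22, adjusted p = 0.122).

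Idh1, Pgls and Tkt remained below control under both agents. Idh1 was at 17.7 ± 0.775 FPKM with LPS + H-CDs, against 30.2 ± 0.507 FPKM in control (log2 fold change -0.74 ± 0.06, limma adjusted p = 4.99e-06), Pgls had -0.40 ± 0.10 (adjusted p = 0.0102) and Tkt -0.31 ± 0.07 (adjusted p = 0.00319). Taldo1 was at 118 ± 6.44 FPKM with LPS + H-CDs and 101 ± 8.43 FPKM in control and missed the threshold (0.22, interval 0.03 to 0.40, limma adjusted p = 0.0525, and 0.0188 to 0.314 over the alternatives). It passed as higher with edgeR's quasi-likelihood test and DESeq2 and without LPS + H-CDs replicate 1, LPS replicate 3 or control replicate 3, and its sign turned to -0.091 under TPM scaling. Rpia did not pass either (-0.29, interval -0.58 to -0.0036, limma adjusted p = 0.0836), but it passed as lower in several alternatives: under TPM (-0.61, adjusted p = 0.00337), with edgeR's quasi-likelihood test and DESeq2, and without LPS + H-CDs replicate 1 (-0.42, adjusted p = 0.0126). Over all alternatives its adjusted p lay between 0.00337 and 0.268. Summed over all 9 genes the level was 585 ± 11.7 FPKM with LPS + H-CDs, 367 ± 6.68 FPKM with LPS and 485 ± 22.7 FPKM in control. This sum and those of the branches above are on the deposited scaling and were not taken under TPM, so their differences from control depend on that scaling.

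Values against control depend on how libraries are scaled to each other. The deposited FPKM correspond to reads divided by a library size of 0.983 to 0.993 times the library's own total with LPS + H-CDs, 0.928 to 0.935 times with LPS and 1.13 to 1.15 times in control. In TPM, the median of all tested genes stood at a log2 fold change of -0.28 for LPS + H-CDs against control and -0.30 for LPS against control, where the deposited scaling had 0.01 and 0.03. With the median of all genes subtracted, the 9 genes kept nearly the same place on both scales. G6pdx stood 0.55 above the median on the deposited scale and 0.53 above it in TPM for LPS + H-CDs against control, and Pgd 0.52 and 0.50. For LPS against control Idh1 stood at -1.21 and -1.27 from the median, and Me1 at 0.21 and 0.19. Under TPM 1 of the 9 genes was called higher and 7 lower for LPS against control, beside 14.3% and 48.3% of all tested genes. For LPS + H-CDs against control 3 were called higher and 4 lower under TPM, beside 14.1% and 45.6% of all tested genes.

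**Figure D3:**
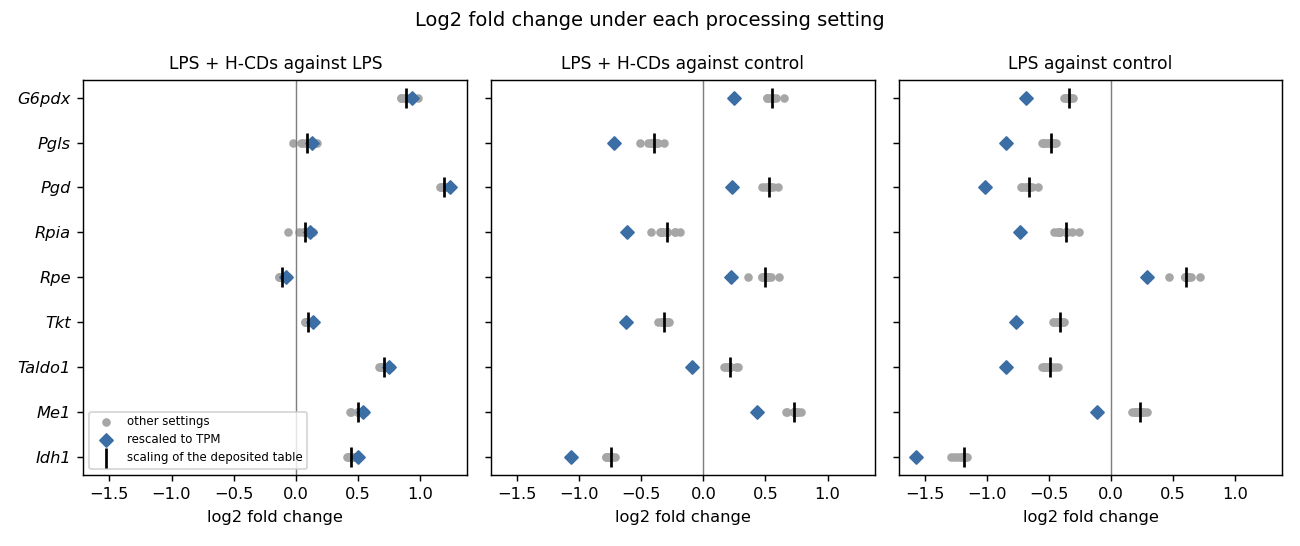
Log2 fold change of the 9 genes (x axis) under every processing setting, for 3 comparisons; the black tick is the deposited scaling, the blue diamond TPM, and grey points the other settings. The diamonds sit close to the ticks for LPS + H-CDs against LPS and are shifted to the left in both comparisons with control, where Me1 against control turns to -0.11 with LPS alone.

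The order of levels among the 9 genes differed between groups. With LPS + H-CDs, G6pdx, Pgd and Taldo1 led at 148, 131 and 118 FPKM, then Me1 and Tkt at 65.8 and 64.6 FPKM, then Pgls, Idh1 and Rpe at 17.7, 17.7 and 16.1 FPKM, with Rpia at 6.48 FPKM. Libraries of G6pdx and Pgd overlapped, as did those of Me1 and Tkt, and those of Pgls overlapped both Idh1 and Rpe. With LPS, Pgd came below G6pdx, Taldo1 and Tkt, at 56.8 against 78.9, 71.6 and 60.3 FPKM. Libraries of G6pdx and Taldo1 overlapped there, as did those of Tkt and Pgd. Me1 followed at 46.3 FPKM, then Rpe and Pgls, which overlapped, at 17.4 and 16.6 FPKM, Idh1 at 12.7 FPKM and Rpia at 6.08 FPKM. In control Taldo1, G6pdx and Pgd overlapped at 101, 99.8 and 90.5 FPKM, and Pgd also overlapped Tkt at 80.7 FPKM. Me1, Idh1 and Pgls stood apart at 39.3, 30.2 and 23.6 FPKM, and Rpe and Rpia overlapped at 11.3 and 8.13 FPKM.

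FPKM levels rest on the gene length used. The deposited length equalled the union of all exons in GENCODE release M21 for all 9 genes, which is 4.22 times the principal transcript for Pgls, 2.93 times for Rpia, 2.91 times for Pgd and 2.28 times for Tkt, but 1.16 times for G6pdx. Divided by the principal transcript's length instead, a rescaling chosen after seeing the data, Pgd led all 9 genes in each group, at 381 ± 17.3 with LPS + H-CDs, 165 ± 4.64 with LPS and 263 ± 24.4 in control, against 171 ± 18.1, 91.6 ± 2.32 and 116 ± 4.67 for G6pdx in the same order of groups. Pgls then stood at 74.9 ± 11.1, 69.95 ± 6.06 and 99.6 ± 6.07. Ratios of FPKM between groups do not depend on the length, but log2 fold changes on the log2(FPKM + 1) scale do, as in Rpia for LPS against control, with a ratio of 0.748 and a log2 fold change of -0.36.

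Isoenzymes and paralogs of the 9 genes were examined for levels of their own. H6pd, which carries out the first steps of the oxidative branch in the endoplasmic reticulum, had 7.03, 6.45 and 8.33 FPKM in LPS + H-CDs libraries, 4.94, 5.13 and 4.66 FPKM in LPS libraries and 8.34, 8.45 and 8.24 FPKM in control libraries. It rose over LPS (log2 fold change 0.48 ± 0.08, limma adjusted p = 0.00515) and fell with LPS against control (-0.66, limma adjusted p = 1.20e-04). G6pd2, a copy of G6pdx elsewhere in the genome, and the transketolase relative Tktl2 were listed at 0 in all libraries, and Tktl1 had 0 to 6 reads. Ikbkg, which overlaps G6pdx on the opposite strand, averaged 6.96 FPKM with LPS + H-CDs, 5.17 FPKM with LPS and 4.79 FPKM in control, far below G6pdx.

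The ratio of each cytosolic enzyme to its mitochondrial paralog was taken within each library. Me2, the mitochondrial malic enzyme that works with NAD, was at 67.9 ± 0.905 FPKM with LPS + H-CDs, 69.8 ± 3.11 FPKM with LPS and 91.0 ± 4.97 FPKM in control. The log2 ratio of Me1 to Me2 within a library was 0.07, -0.07 and -0.14 with LPS + H-CDs, -0.58, -0.56 and -0.65 with LPS and -1.15, -1.26 and -1.23 in control. The mean linear ratio was thus 0.970 with LPS + H-CDs, 0.662 with LPS and 0.432 in control. The groups did not overlap, and the differences of 0.55 for LPS + H-CDs minus LPS and 0.62 for LPS minus control each had an exact 2-sided permutation p of 0.1, the smallest that 3 against 3 libraries allow.

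Idh2, the mitochondrial NADP-dependent isocitrate dehydrogenase, was at 57.2 ± 3.34 FPKM with LPS + H-CDs, 52.0 ± 3.55 FPKM with LPS and 81.1 ± 4.07 FPKM in control. The log2 ratio of Idh1 to Idh2 was -1.82, -1.73 and -1.54 with LPS + H-CDs, -1.85, -2.12 and -2.13 with LPS and -1.39, -1.48 and -1.41 in control, so Idh1 stayed below Idh2 in all 9 libraries. The difference was 0.34 for LPS + H-CDs minus LPS and -0.60 for LPS minus control, again with an exact permutation p of 0.1. Adjusted over the 6 ratio tests by Benjamini-Hochberg, all stayed at 0.1 and none can reach 0.05 in this design.

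**Figure D4:**
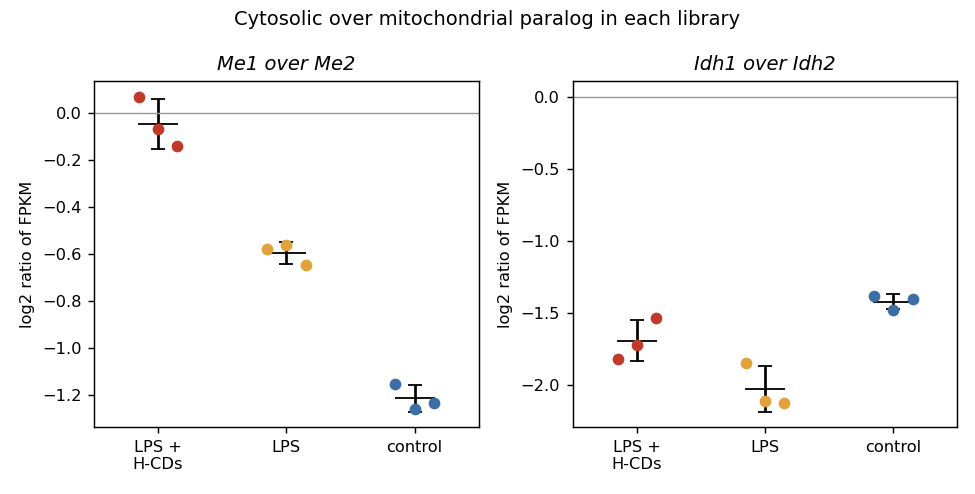
Log2 ratio of FPKM (y axis) of the cytosolic over the mitochondrial gene in each library, with mean and SD (n = 3) as black bars. Me1 over Me2 stands at -0.05 ± 0.11 with LPS + H-CDs, -0.60 ± 0.05 with LPS and -1.21 ± 0.06 in control, whereas Idh1 over Idh2 is lowest with LPS, at -2.03 ± 0.16.

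Of 12 further genes of the pentose phosphate pathway, 9 were tested. With LPS + H-CDs against LPS 2 rose and none fell (1 fell without LPS + H-CDs replicate 1), with a median log2 fold change of -0.03. Among all tested genes 6.54% were called higher there and 9.05% lower. The 2 that rose were H6pd, above, and Pgm2, which interconverts sugar phosphates (51.8 FPKM against 36.6 FPKM with LPS, log2 fold change 0.49 ± 0.10, limma adjusted p = 0.0103). With LPS against control 2 rose and 3 fell, and rescaled to TPM none rose and 7 fell. The shares of all tested genes were 28.8% higher and 26.8% lower, and 14.3% and 48.3% under TPM. Prps2, one of the synthetases that turn ribose phosphate into the precursor of nucleotides, fell to 9.55 FPKM with LPS, against 24.4 FPKM in control (-1.27 ± 0.07, limma adjusted p = 4.75e-07). Tigar, whose product lowers fructose bisphosphate levels, rose by 0.46 ± 0.06 (limma adjusted p = 1.29e-04). Shpk, the kinase of sedoheptulose, had 12, 20 and 26 reads with LPS, against 53, 74 and 70 reads in control (-0.63 ± 0.12, limma adjusted p = 0.00162). For LPS + H-CDs against control 2 of the 9 were higher and 2 lower, against 1 and 1 without LPS + H-CDs replicate 1, and none and 7 under TPM. The shares of all tested genes were 26.7% higher and 25.4% lower there, and 14.1% and 45.6% under TPM.

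Another list held 12 genes grouped around the supply of NADPH and NADP, though not all make either: Me2, above, works with NAD. Of these, 8 were tested. With LPS + H-CDs against LPS 3 rose and 2 fell, with a median log2 fold change of 0.13 (1 fell under TPM). Among all tested genes 6.54% were called higher and 9.05% lower, and 7.47% and 5.89% under TPM. Nadk, the cytosolic kinase that makes NADP from NAD, fell to 108.5 FPKM with LPS + H-CDs, against 162 FPKM with LPS (-0.57 ± 0.06, limma adjusted p = 2.68e-04). Its mitochondrial counterpart Nadk2 rose to 8.19 FPKM, against 5.73 FPKM with LPS (0.45 ± 0.07, limma adjusted p = 0.00368). The mitochondrial folate enzymes Aldh1l2 and Mthfd2 rose by 0.81 ± 0.10 and 0.42 ± 0.05 (limma adjusted p = 9.35e-04 and 0.00113). With LPS against control Nadk rose by 0.83 ± 0.06 and Nadk2 fell by 0.82 ± 0.07 on the log2 scale (limma adjusted p = 1.99e-06 and 1.20e-05); both comparisons share the LPS libraries.

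The consumers of NADPH split. Of 23 such genes 22 were tested. With LPS + H-CDs against LPS 6 rose, 5 fell (4 without LPS + H-CDs replicate 1) and 11 did not pass. Among all tested genes 6.54% were called higher and 9.05% lower. The median log2 fold change of the 22 was -0.06. The 4 with the smallest adjusted p all rose: the aldo-keto reductase Akr1b8 (2.65 ± 0.06, 122 FPKM against 18.7 FPKM with LPS), thioredoxin reductase Txnrd1 (1.29 ± 0.07), biliverdin reductase Blvrb (2.16 ± 0.13) and glutathione reductase Gsr (0.90 ± 0.07), with limma adjusted p of 3.17e-08 to 6.53e-05. The 5 that fell, named after their values were seen, were Nos2, Fasn, Cybb, Rac2 and Ncf4. Nos2, the inducible nitric oxide synthase, was at 51.7, 51.5 and 51.4 FPKM in LPS + H-CDs libraries, 142.4, 134.1 and 109.7 FPKM in LPS libraries and 1.02, 2.11 and 1.17 FPKM in control libraries. Its log2 fold change over LPS was -1.30 ± 0.16 (limma adjusted p = 7.18e-04). Fasn, the fatty acid synthase, fell to 66.1 FPKM, against 102 FPKM with LPS (-0.62 ± 0.09, limma adjusted p = 0.00263). Cybb, the catalytic subunit of the phagocyte NADPH oxidase, fell to 226 FPKM, against 342 FPKM with LPS (-0.60 ± 0.09, limma adjusted p = 0.00273). Ncf4 and Rac2, which act with that oxidase, had -0.28 ± 0.07 and -0.41 ± 0.11 (limma adjusted p = 0.0262 and 0.0306).

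As a set for comparison, 18 NRF2 targets with other roles, from heme breakdown to glutathione synthesis, had 16 tested. With LPS + H-CDs against LPS 13 rose and none fell (14 rose without LPS + H-CDs replicate 1). Among all tested genes 6.54% were called higher and 9.05% lower. The median log2 fold change of the NRF2 targets was 1.56, against 0.44 for the 9 enzymes, and no enzyme of the 9 reached that median. Both lists were chosen with earlier results of these data known, so the medians are descriptive. The difference between the lists was not tested.

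**Figure D5:**
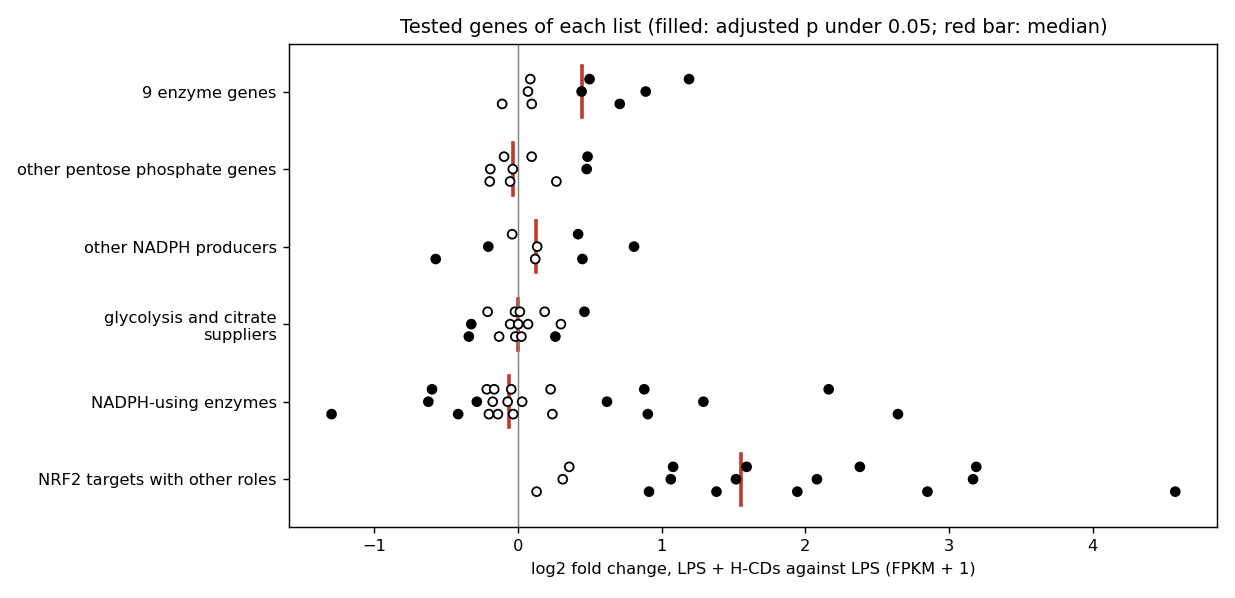
Log2 fold change of LPS + H-CDs against LPS (x axis, log2(FPKM + 1) scale) for the tested genes of 6 lists; filled points passed an adjusted p of 0.05 in limma and red bars are medians. The 9 enzymes range from -0.11 to 1.19 with a median of 0.44, and the NRF2 targets with other roles have a median of 1.56.

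Genes with a pattern most like that of G6pdx or Me1 were sought over all tested genes, by the root mean square difference of log2(FPKM + 1) values over the 9 libraries after centring each gene on its mean. For G6pdx these were Gsr (0.08), Trim16 (0.09), Akr1b3 (0.12), Pced1b (0.12) and Slc39a4 (0.13). Gsr averaged 80.4 FPKM with LPS + H-CDs, 42.4 FPKM with LPS and 49.96 FPKM in control, and Akr1b3 55.4, 29.6 and 41.9 FPKM in the same order of groups. For Me1 they were Whamm (0.07), Plgrkt (0.07), Abcd3 (0.09), Ddr2 (0.09) and Rheb (0.09), each with the highest mean in LPS + H-CDs and the lowest in control, as in Rheb with 15.4 FPKM with LPS + H-CDs, 11.4 FPKM with LPS and 9.85 FPKM in control. On this scale genes of low level look flatter than they are, as for Trim16 at 1.21 FPKM with LPS + H-CDs.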

How the data were processed

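Poly-A selected RNA of 9 libraries was sequenced. The authors deposited FPKM for 54532 genes, per the file's name, and a second table that holds, per the file headers, a signal per library (reads divided by a factor), the log2 fold change and its p-value, raw and adjusted. The genome build was GRCm38 (mm10), per the submitters' processing notes; the sources used here name no aligner, counter or test. The headers' CD was read as H-CDs.

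Reads were recovered from FPKM times gene length, since 100% of values above 0 came out whole in steps of a single read (tolerance 0.01), and on them edgeR called 2123, 6648 and 6304 genes in the comparisons LPS + H-CDs against LPS, LPS against control and LPS + H-CDs against control. Genes with at least 1 FPKM in at least 3 libraries, 11707 in all, were fitted with limma 3.58.1 (intensity trend, log2(FPKM + 1), all 9 libraries, 6 residual degrees of freedom), 2-sided, adjusted by Benjamini-Hochberg in each of 3 comparisons. Fold changes on this scale understate changes of low genes. edgeR 4.0.16 and DESeq2 1.42.0 on recovered reads were alternatives, and the limma code was tested on simulated data. Where 2 rows shared a symbol, the row with the higher level was used.

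The 9 genes and all lists were chosen with earlier results of these data known. Named are the 9 genes, their isoenzymes, and per list and comparison up to 4 genes of smallest adjusted p; genes named beyond that overlap a member, mark a cell type or are said to have been named after their values were seen.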

Additional observations from a re-analysis of the deposited data

How the results depend on the processing

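For LPS + H-CDs against LPS, 142 of 144 values of the 9 genes under other settings kept direction and side of the threshold. The other two, Pgls (-0.023) and Rpia (-0.058) without LPS + H-CDs replicate 1, turned in sign without being called; over all libraries left out Pgls lay between -0.023 and 0.169 and Rpia between -0.058 and 0.137. Against control, 131 of 144 values held for LPS and 132 for LPS + H-CDs. Sign turned under TPM for Me1 with LPS (-0.11) and Taldo1 with LPS + H-CDs (-0.091). The number of the 9 genes called higher with LPS was 1 with no filter on low values, under TPM and with edgeR, and 1 to 2 when a library was left out.

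Over all genes, 1826 were called for LPS + H-CDs against LPS (766 higher, 1060 lower), and 1022 to 1760 without 1 library (446 to 714 higher, 576 to 1064 lower), with 1185, 1098 and 1022 without LPS + H-CDs replicate 2, LPS replicate 1 and LPS replicate 2. Under TPM 690 were lower in that comparison; 1676 were higher and 5657 lower for LPS against control, and 1651 and 5338 for LPS + H-CDs against control. The cause was not tested.

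Deviations of same-numbered libraries correlated between -0.12 and 0.20, and those of other pairs across groups between -0.17 and 0.17. Between LPS and control the same-numbered values were 0.20, 0.06 and 0.09, and the others lay between -0.17 and 0.07. The numbers were not taken to pair libraries, though these values do not settle whether they do. With a replicate block 1485, 6276 and 5836 genes were called for LPS + H-CDs against LPS, LPS against control and LPS + H-CDs against control, and of the 9 genes Rpia lost its call with LPS (adjusted p = 0.0678) and Taldo1 passed with LPS + H-CDs against control (adjusted p = 0.0188).

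Each of the 9 genes had at least 402 reads per library, and 3 libraries per group limit the precision.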

Other observations

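Genes of glycolysis and of citrate and malate metabolism went both ways with H-CDs on the deposited scaling. Of 16 such genes, 15 were tested. With LPS + H-CDs against LPS 2 rose, 2 fell and 11 did not pass, with a median log2 fold change of 0.003. Over all tested genes 6.54% were called higher and 9.05% lower. Without LPS + H-CDs replicate 1 it was 1 higher and 2 lower, and under TPM 2 higher and none lower. The phosphofructokinase gene Pfkm rose to 4.99 FPKM with LPS + H-CDs, against 3.34 FPKM with LPS (0.46 ± 0.08, limma adjusted p = 0.00628), and the aldolase gene Aldoa rose by 0.26 ± 0.07 (adjusted p = 0.0398). Hk2, a hexokinase, which makes the glucose-6-phosphate that G6pdx uses, fell to 94.98 FPKM, against 120.1 FPKM with LPS (-0.34 ± 0.10, limma adjusted p = 0.0435), and Acly, which splits citrate, fell to 73.35 FPKM, against 92.1 FPKM (-0.32 ± 0.08, limma adjusted p = 0.0211).

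With LPS against control 2 of these 15 rose and 5 fell, and under TPM 2 rose and 11 fell. Among all tested genes 28.8% were called higher and 26.8% lower, and 14.3% and 48.3% under TPM. Hk2 rose to 120.1 FPKM with LPS, against 57.2 FPKM in control (1.06 ± 0.10, limma adjusted p = 1.33e-05), while Pfkm fell to 3.34 FPKM, against 10.4 FPKM (-1.39 ± 0.08, limma adjusted p = 7.49e-07).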
